A study of Mus musculus with 18 samples.

Results

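The genes described here are Myc and 35 genes of ribosome biogenesis, 36 in all, out of 20672 genes measured on the array. They were picked by symbol, and each was represented by its brightest probe set over the 18 arrays. No test of a group difference chose the probe set. Most of the 18 arrays were leukemic, however, so a probe set bright in leukemia was more likely to be chosen. A probe set was found for 35 of the 36, and Mrto4, a large subunit assembly factor, was not analysed here. The 35 had 66 probe sets between them, 13 with 1 and 22 with 2 or more.

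Ribosomes are built in the nucleolus. RNA polymerase I transcribes a long precursor ribosomal RNA, small nucleolar ribonucleoproteins (snoRNPs) guide its chemical modification, and large sets of assembly factors fold it, cut it and join it to ribosomal proteins into a small and a large subunit. MYC is a transcription factor that binds DNA as a dimer with MAX and is known for raising the genes of nearly all of these steps. In T-cell acute lymphoblastic leukemia (T-ALL), Myc is known as a main target of Notch signalling.

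Total RNA from 18 mice was hybridised to Affymetrix mouse arrays, 1 array per mouse. The Idh2R140Q/NHD13 group (9 arrays) was leukemic spleen of mice that carry the R140Q mutation of isocitrate dehydrogenase 2 and the NUP98-HOXD13 fusion transgene, with T-ALL named after DN1/DN2, the earliest thymocyte stages. The SCL/LMO1 group (6 arrays) was leukemic thymus of mice carrying SCL and LMO1 transgenes, with a cortical T-ALL of CD4+CD8+ cells. The normal tissue was thymus of wild-type mice (3 arrays), and ages and the promoters that drive the transgenes are not given in the sources used here. Spleen was taken from the Idh2R140Q/NHD13 mice alone, so genotype and tissue cannot be told apart in either comparison that uses them. By signals of Xist and Y-linked genes all wild-type mice were female, and of the SCL/LMO1 mice only 6889/1 was. Sex and genotype thus largely go together in that comparison, and the part of sex was not tested. In bulk tissue, fewer cells of a type and less RNA per cell cannot be told apart either.

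Values are log2 signals as deposited, so a difference of 1 is a doubling. A nearly identical pair of arrays, from mice 546 and 550, had a root mean square difference of 0.212 over all probe sets, where the closest of the other 152 pairs had 0.445. Their mean was used as a single sample, so that the Idh2R140Q/NHD13 group had 8 and the study 17 samples. Marker genes fixed for other cell types set the spleens apart: the mean of 12 erythroid markers was 9.38 to 12.7 there against 5.40 to 5.84 in the thymi of both other groups, and the mean of 12 T-lineage markers was 6.45 to 9.56 against 11.033 to 12.142. Mouse 555 of the Idh2R140Q/NHD13 group had signal both from Xist (9.53) and from 4 Y-linked genes (6.70 to 8.74), which no other array had together. Among the SCL/LMO1 thymi, mouse 3767 had a thymic epithelium marker mean of 9.06, within 0.2 of the lowest wild-type thymus at 9.22.

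Most of these genes had higher mean signals in both leukemias than in wild-type thymus, and few of them differed by a called amount between the leukemias. A gene was called when its adjusted p in limma, with Benjamini-Hochberg adjustment over all 20672 genes, was under 0.05. In Idh2R140Q/NHD13 spleen 23 of 35 members rose and 0 fell against wild-type thymus, beside 9.08% of all genes higher and 8.31% lower. The SCL/LMO1 thymi had 16 of 35 higher and 0 lower, beside 5.04% of all genes higher and 6.52% lower. Between the leukemias 2 members were higher in Idh2R140Q/NHD13 spleen and 1 was lower, beside 11.7% and 12% of all genes. The same shares of all genes stand beside the counts of role groups and lists below. The median member differed by 0.93 in Idh2R140Q/NHD13 spleen and by 0.83 in SCL/LMO1 thymus from wild-type thymus, where the median of all genes was 0.10 and 0.08. Between the leukemias the members' median was 0.07 and that of all genes 0.03.

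The members and lists were chosen with earlier results of these data known, and both comparisons with wild-type thymus use the same 3 mice, so the direction they share is a description. The number of calls rested on those 3 mice and on the estimate of spread that all 3 groups share in the fit. With only the 2 groups compared, 9 members were called in Idh2R140Q/NHD13 spleen and 27 in SCL/LMO1 thymus. Which leukemia had more calls therefore depended on the fit. Without wild-type mouse 623 the calls fell to 5 in Idh2R140Q/NHD13 spleen and 3 in SCL/LMO1 thymus, and without mouse 627 to 5 and 1. The share of all genes called fell as well, from 17.4% to 6.69% and from 11.6% to 5.80% without mouse 623. Leaving out SCL/LMO1 mouse 7114/3, 6889/1, 6466/4 or 6883/2 left 8, 9, 10 and 10 calls in SCL/LMO1 thymus. Mice 7114/1 and 7114/3, which share a number and were the next closest pair of arrays after mice 546 and 550 (0.445), were counted as 2 samples, and averaging them left 10 calls. The labels do not say whether these mice were related. Under 29 other settings the calls of Ddx21 and Fbl in Idh2R140Q/NHD13 spleen and of Polr1a in SCL/LMO1 thymus were kept in all, and each other call against wild-type thymus was lost in at least 1. The median size moved less: over every mouse left out in turn, and with mice 555, 627 and 6889/1 left out together, the median member stayed between 0.81 and 1.05 in Idh2R140Q/NHD13 spleen and between 0.72 and 0.96 in SCL/LMO1 thymus. Members called in Idh2R140Q/NHD13 spleen had 22 other probe sets, of which 20 kept the direction and 8 the call. For SCL/LMO1 thymus these were 15 and 5 of 16.

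**Figure D1:**
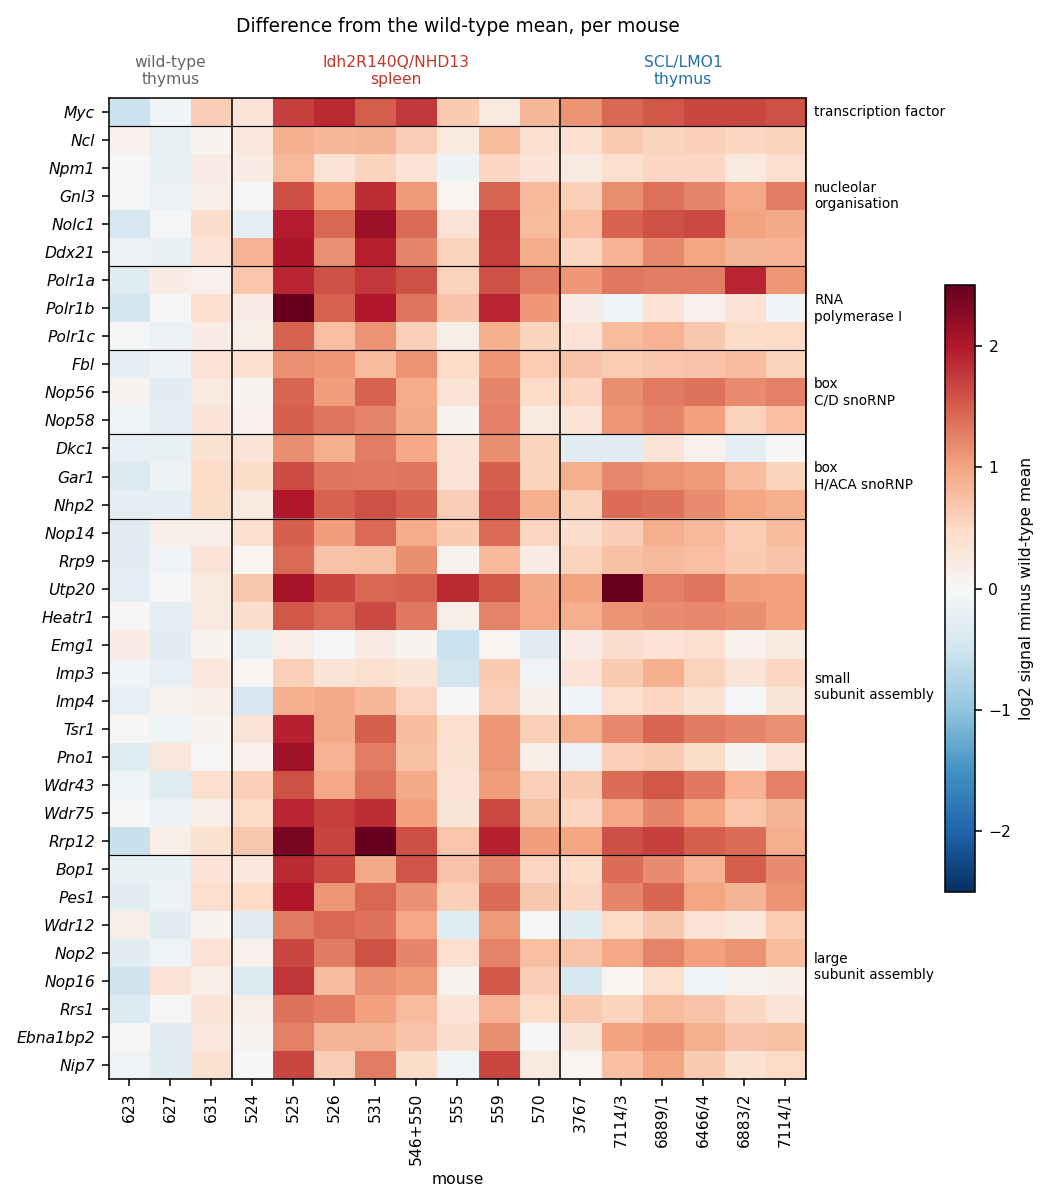
Colour gives each member's log2 signal minus its mean over the 3 wild-type thymi, for every mouse (columns, by group) and member (rows, by role), on a scale from -2.5 to 2.5. Most cells of both leukemias are red, while mice 524 and 555 of the Idh2R140Q/NHD13 group are pale in most rows, and wild-type mouse 631 is slightly red in every row.

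Myc itself rose in both leukemias. Its signal was 8.45, 8.91 and 9.59 in the 3 wild-type thymi. It ran from 9.22 over a median of 10.2 to 10.8 in Idh2R140Q/NHD13 spleen, and from 10.1 over a median of 10.6 to 10.7 in SCL/LMO1 thymus. All 6 SCL/LMO1 thymi lay above all wild-type thymi, while 2 Idh2R140Q/NHD13 spleens, of mice 524 (9.30) and 559 (9.22), lay below wild-type mouse 631. The difference from wild-type thymus was 1.12 (SE 0.35, adjusted p = 0.0372) in Idh2R140Q/NHD13 spleen and 1.51 (SE 0.36, adjusted p = 0.0145) in SCL/LMO1 thymus. The call in Idh2R140Q/NHD13 spleen was lost without any 1 of wild-type mice 623 or 627 (adjusted p = 0.218 and 0.117) or of Idh2R140Q/NHD13 mice 525, 526, 531 or 546+550 (0.0582, 0.0521, 0.0601 and 0.0591), and the call in SCL/LMO1 thymus without 623 or 627 (0.0932 and 0.0774). Between the leukemias Myc differed by -0.39 (95% interval -0.98 to 0.19, adjusted p = 0.337).

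The nucleolar proteins Ncl (nucleolin), Npm1 (nucleophosmin), Gnl3 (nucleostemin), Nolc1 (the snoRNP chaperone Nopp140) and Ddx21 (an RNA helicase of RNA polymerase I transcripts) had positive differences from wild-type thymus in both leukemias, and 3 of 5 rose in Idh2R140Q/NHD13 spleen and 2 of 5 in SCL/LMO1 thymus. Ddx21 had signals of 9.50, 9.54 and 10.025 in wild-type thymus, 10.3 to 11.7 (median 10.9) in Idh2R140Q/NHD13 spleen and 10.2 to 10.9 (median 10.6) in SCL/LMO1 thymus. Neither leukemia overlapped wild-type thymus. It rose by 1.30 (SE 0.27, adjusted p = 0.00421) in Idh2R140Q/NHD13 spleen, a call kept in all 29 other settings, while the 0.88 (SE 0.28) of SCL/LMO1 thymus just missed the threshold (adjusted p = 0.0516). Ncl rose by 0.61 (SE 0.14) and 0.55 (SE 0.15) and Gnl3 by 0.99 (SE 0.33) and 1.10 (SE 0.34). The Gnl3 calls, with adjusted p of 0.0491 and 0.0492, sat at the threshold, and 21 and 17 of the 29 other settings lost them. Nolc1, at 1.20 and 1.23, and Npm1, at 0.37 and 0.39, were not called in either leukemia with their brightest probe sets. The second probe set of Nolc1 was called in both (1.30, adjusted p = 0.00343, and 1.16, adjusted p = 0.0128), and that of Npm1 in Idh2R140Q/NHD13 spleen (0.665, adjusted p = 0.0451).

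RNA polymerase I is the enzyme that makes the precursor ribosomal RNA, and 3 of its 3 subunits among the members rose in Idh2R140Q/NHD13 spleen and 1 of 3 in SCL/LMO1 thymus. Polr1a, the largest catalytic subunit, had signals of 6.87, 7.29 and 7.35 in wild-type thymus. It ran from 7.75 to 9.08 (median 8.76) in Idh2R140Q/NHD13 spleen and from 8.25 to 9.07 (median 8.45) in SCL/LMO1 thymus, so neither leukemia overlapped the wild type. The rise was 1.37 (SE 0.26, adjusted p = 0.00248) in Idh2R140Q/NHD13 spleen and 1.33 (SE 0.27, adjusted p = 0.00590) in SCL/LMO1 thymus, and the latter was the only member call of that comparison kept in all 29 other settings.

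Polr1b, the second catalytic subunit, differed between the leukemias. Its signal was 6.44, 6.92 and 7.30 in wild-type thymus, 6.79 to 7.25 (median 7.04) in SCL/LMO1 thymus and 7.08 to 9.59 (median 8.29) in Idh2R140Q/NHD13 spleen. All 6 SCL/LMO1 thymi lay within the wild-type range, and 7 of the 8 Idh2R140Q/NHD13 spleens lay above it, with mouse 524 as the low one. Polr1b was 1.28 higher (SE 0.31, adjusted p = 0.00588) in Idh2R140Q/NHD13 spleen than in SCL/LMO1 thymus, kept in all 29 other settings, and 1.43 higher (SE 0.38, adjusted p = 0.0188) than in wild-type thymus, a call lost without wild-type mouse 623 (adjusted p = 0.122) or 627 (0.0626). SCL/LMO1 thymus differed from wild-type thymus by 0.14 (95% interval -0.70 to 0.99). Polr1c, a subunit shared by RNA polymerases I and III, rose by 0.71 (SE 0.23, adjusted p = 0.0446) in Idh2R140Q/NHD13 spleen and was at 0.60 (adjusted p = 0.119) in SCL/LMO1 thymus.

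**Figure D2:**
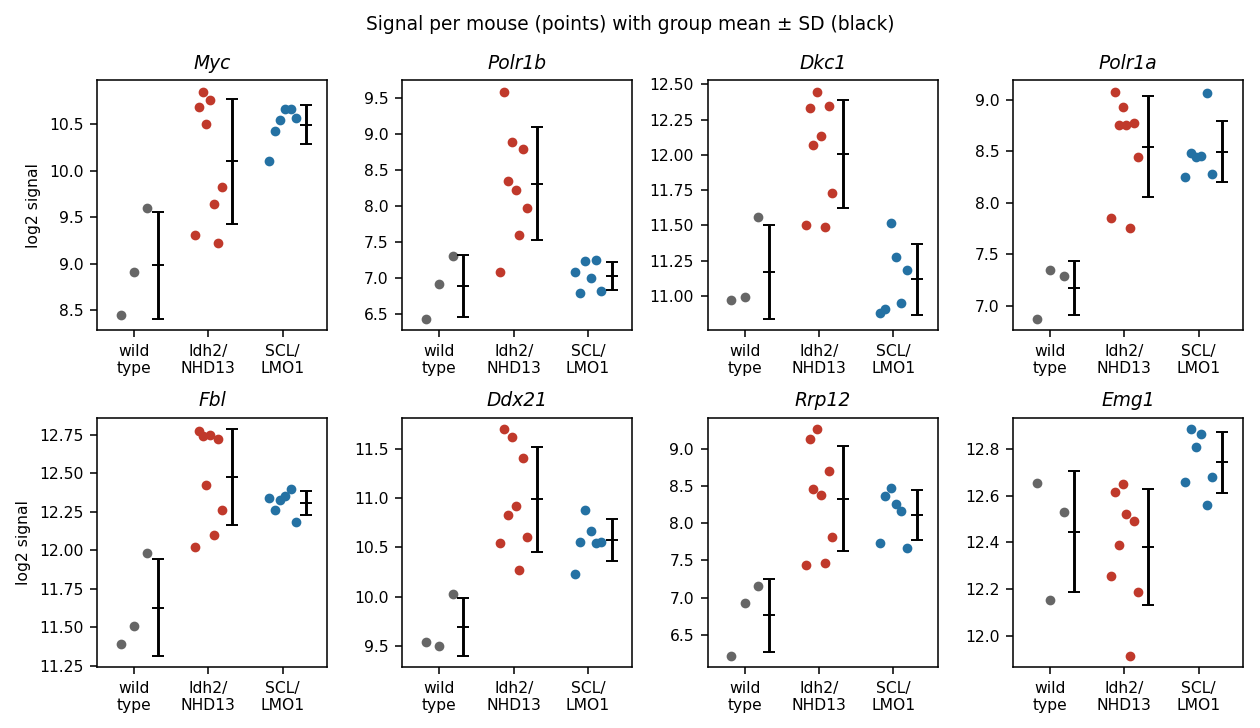
Each point is the log2 signal of 1 mouse for the gene named above the panel, with the group mean ± SD in black (n = 3, 8 and 6 for wild-type thymus, Idh2R140Q/NHD13 spleen and SCL/LMO1 thymus), and each panel has its own vertical scale. With their brightest probe sets, Polr1b and Dkc1 are high in most Idh2R140Q/NHD13 spleens and not in SCL/LMO1 thymus. Myc, Polr1a, Fbl, Ddx21 and Rrp12 are high in both leukemias, and Emg1 overlaps in all 3 groups.

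Of the box C/D snoRNP proteins, which carry out 2′-O-methylation of ribosomal RNA, 2 of 3 rose in each leukemia. Fbl (fibrillarin), the methyltransferase, had signals of 11.4, 11.5 and 12.0 in wild-type thymus, 12.0 to 12.8 (median 12.6) in Idh2R140Q/NHD13 spleen and 12.2 to 12.4 (median 12.3) in SCL/LMO1 thymus. No sample of either leukemia fell as low as the wild type. It rose by 0.84 (SE 0.17, adjusted p = 0.00374) in Idh2R140Q/NHD13 spleen, a call kept in all 29 other settings, and by 0.68 (SE 0.18, adjusted p = 0.0225) in SCL/LMO1 thymus. Nop56, a core protein of the same particle, rose by 0.88 (SE 0.28) and 1.13 (SE 0.29). Its second probe set gave 0.53 and 0.94, neither of them called. Nop58, the partner of Nop56, was at 0.84 and 0.83 and was not called (adjusted p = 0.0710 and 0.106).

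The box H/ACA snoRNP proteins convert uridine of ribosomal RNA to pseudouridine, and Dkc1, Gar1 and Nhp2 also belong to the telomerase particle. In Idh2R140Q/NHD13 spleen 3 of 3 rose, and in SCL/LMO1 thymus 2 of 3. Nhp2 rose by 1.24 (SE 0.31) and 1.06 (SE 0.33), and Gar1 by 1.06 (SE 0.28) and 0.94 (SE 0.29). Dkc1 (dyskerin), the pseudouridine synthase, was the exception. Its signal was 10.97, 10.99 and 11.56 in wild-type thymus, 10.9 to 11.5 (median 11.1) in SCL/LMO1 thymus and 11.5 to 12.4 (median 12.1) in Idh2R140Q/NHD13 spleen. The 2 lowest spleens, of mice 524 and 555, lay just below the highest SCL/LMO1 thymus, mouse 6889/1 (11.516), and the other 6 lay above it. Dkc1 was 0.89 higher (SE 0.17, adjusted p = 0.00168) in Idh2R140Q/NHD13 spleen than in SCL/LMO1 thymus and 0.83 higher (SE 0.22, adjusted p = 0.0175) than in wild-type thymus, the latter lost without wild-type mouse 623 or 627 (adjusted p = 0.106 and 0.0872).

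The Dkc1 difference between the leukemias was seen with its brightest probe set alone. The next 2 probe sets gave 0.22 and -0.45, neither of them called, and with the mean of all its probe sets the difference was 0.22 (adjusted p = 0.497). Against wild-type thymus the next 2 gave 0.98 and -0.05 in Idh2R140Q/NHD13 spleen and 0.76 and 0.41 in SCL/LMO1 thymus, none of them called. Dkc1 lies on chromosome X, and by Xist and Y-linked signals all 3 wild-type mice and 1 of 6 SCL/LMO1 mice were female, while the Idh2R140Q/NHD13 group held both sexes; the part of sex in its level was not tested. Polr1b had 1 probe set.

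The largest role group was the assembly of the small subunit, with 12 members, of which 7 rose in Idh2R140Q/NHD13 spleen and 5 in SCL/LMO1 thymus. Rrp12, an export and maturation factor of pre-ribosomes, had signals of 6.21, 6.92 and 7.15 in wild-type thymus. It ran from 7.44 to 9.27 (median 8.42) in Idh2R140Q/NHD13 spleen and from 7.67 to 8.48 (median 8.21) in SCL/LMO1 thymus, and neither leukemia overlapped the wild type. It rose by 1.57 (SE 0.37, adjusted p = 0.00904), the largest difference of any member in Idh2R140Q/NHD13 spleen, and by 1.35 (SE 0.38, adjusted p = 0.0326) in SCL/LMO1 thymus. Without wild-type mouse 623 neither was called (adjusted p = 0.0792 and 0.167), and in SCL/LMO1 thymus 6 of the 17 single omissions lost the call.

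Utp20, Heatr1, Wdr43 and Wdr75 belong to the small subunit processome, the particle that forms on the nascent transcript, and Tsr1 is a GTPase-like factor of late maturation. Utp20 had signals of 8.46, 8.68 and 8.90 in wild-type thymus, 9.36 to 10.7 (median 10.2) in Idh2R140Q/NHD13 spleen and 9.69 to 11.7 (median 9.83) in SCL/LMO1 thymus, with no overlap. The value 11.7 was that of mouse 7114/3, the other 5 SCL/LMO1 thymi lying at or below 10.016, and the rise of 1.46 (SE 0.39) in that group was 1.14 without it (adjusted p = 0.0246 and 0.0117). In Idh2R140Q/NHD13 spleen the rise was also 1.46 (SE 0.37, adjusted p = 0.0147). Heatr1 rose by 1.09 and 1.10, Tsr1 by 0.95 and 1.20 and Wdr43 by 0.93 and 1.18 in Idh2R140Q/NHD13 spleen and SCL/LMO1 thymus. The dimmer probe sets of Heatr1 gave 0.38 and 0.14 in Idh2R140Q/NHD13 spleen and 0.47 and 0.16 in SCL/LMO1 thymus, none of them called.

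Wdr75 and Nop14, also of the processome, rose by 1.21 and 0.99 in Idh2R140Q/NHD13 spleen, and the 0.88 and 0.70 of SCL/LMO1 thymus were not called (adjusted p = 0.0939 and 0.0583). Neither gene differed by a called amount between the leukemias, so no difference in response was shown. Rrp9, Imp3, Imp4 and Pno1, the first 3 of them U3 snoRNP or processome proteins and the last a late maturation factor, were at 0.64, 0.22, 0.44 and 0.84 in Idh2R140Q/NHD13 spleen and at 0.71, 0.55, 0.26 and 0.33 in SCL/LMO1 thymus, and none was called in either.

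Emg1, the methyltransferase of a small subunit RNA pseudouridine, was the only member called lower in any comparison. Its signal was 12.2, 12.5 and 12.7 in wild-type thymus, 11.9 to 12.7 (median 12.4) in Idh2R140Q/NHD13 spleen and 12.6 to 12.9 (median 12.7) in SCL/LMO1 thymus, and all 3 groups overlapped. It was lower in Idh2R140Q/NHD13 spleen than in SCL/LMO1 thymus by a log2 difference of -0.36 (SE 0.12, adjusted p = 0.0335). The call was lost without Idh2R140Q/NHD13 mouse 524 or 570 (adjusted p = 0.0504 and 0.0595) or SCL/LMO1 mouse 7114/3, 6889/1 or 6466/4 (0.0750, 0.0636 and 0.0740). Against wild-type thymus Emg1 differed by -0.07 in Idh2R140Q/NHD13 spleen and by 0.30 in SCL/LMO1 thymus, neither of them called.

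Of 8 measured large subunit assembly factors, 4 rose in Idh2R140Q/NHD13 spleen and 3 in SCL/LMO1 thymus. Bop1, Pes1 and Wdr12 form the PeBoW complex, which is needed for maturation of the 60S precursor. Bop1 had signals of 7.985, 7.997 and 8.491 in wild-type thymus, 8.42 to 10.02 (median 9.25) in Idh2R140Q/NHD13 spleen and 8.64 to 9.66 (median 9.34) in SCL/LMO1 thymus, where a single spleen overlapped the wild type. It rose by 1.10 in each leukemia (SE 0.31 and 0.32, adjusted p = 0.0233 and 0.0370).

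Pes1 rose by 1.11 (SE 0.28, adjusted p = 0.0141) and 1.02 (SE 0.29, adjusted p = 0.0338). Its second brightest probe set gave -0.04 and -0.34 instead, neither called. Wdr12, the third subunit, was at 0.69 and 0.35 against wild-type thymus with its brightest probe set and at -1.08 and 0.28 with its second, and was not called with either. Its probe sets also differed between the leukemias, at 0.34 for the brightest (not called) and at -1.36 for the second (adjusted p = 0.00498 with the second brightest probe set of each gene). For both genes the direction therefore depended on the probe set.

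Nop2, an RNA methyltransferase of the large subunit, rose by 1.04 and 0.98 (SE 0.28 and 0.29), and Rrs1, which brings 5S RNP proteins into the precursor, by 0.79 (SE 0.23) in Idh2R140Q/NHD13 spleen, with 0.60 (not called, adjusted p = 0.113) in SCL/LMO1 thymus. Ebna1bp2 and Nip7, 2 further factors of the 60S precursor, were at 0.68 and 0.73 in Idh2R140Q/NHD13 spleen and at 0.79 and 0.56 in SCL/LMO1 thymus, with no call. Nop16 was 0.80 higher (SE 0.29) in Idh2R140Q/NHD13 spleen than in SCL/LMO1 thymus and just missed the threshold (adjusted p = 0.0537). Its SCL/LMO1 mean was 8.17 ± 0.27 (SD, n = 6) and its wild-type mean 8.14 ± 0.45 (SD, n = 3). Both values rest on the brightest probe set of Nop16, since the second gave -0.06 between the leukemias and 0.665 and 0.722 against wild-type thymus in Idh2R140Q/NHD13 spleen and SCL/LMO1 thymus, none of them called.

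**Figure D3:**
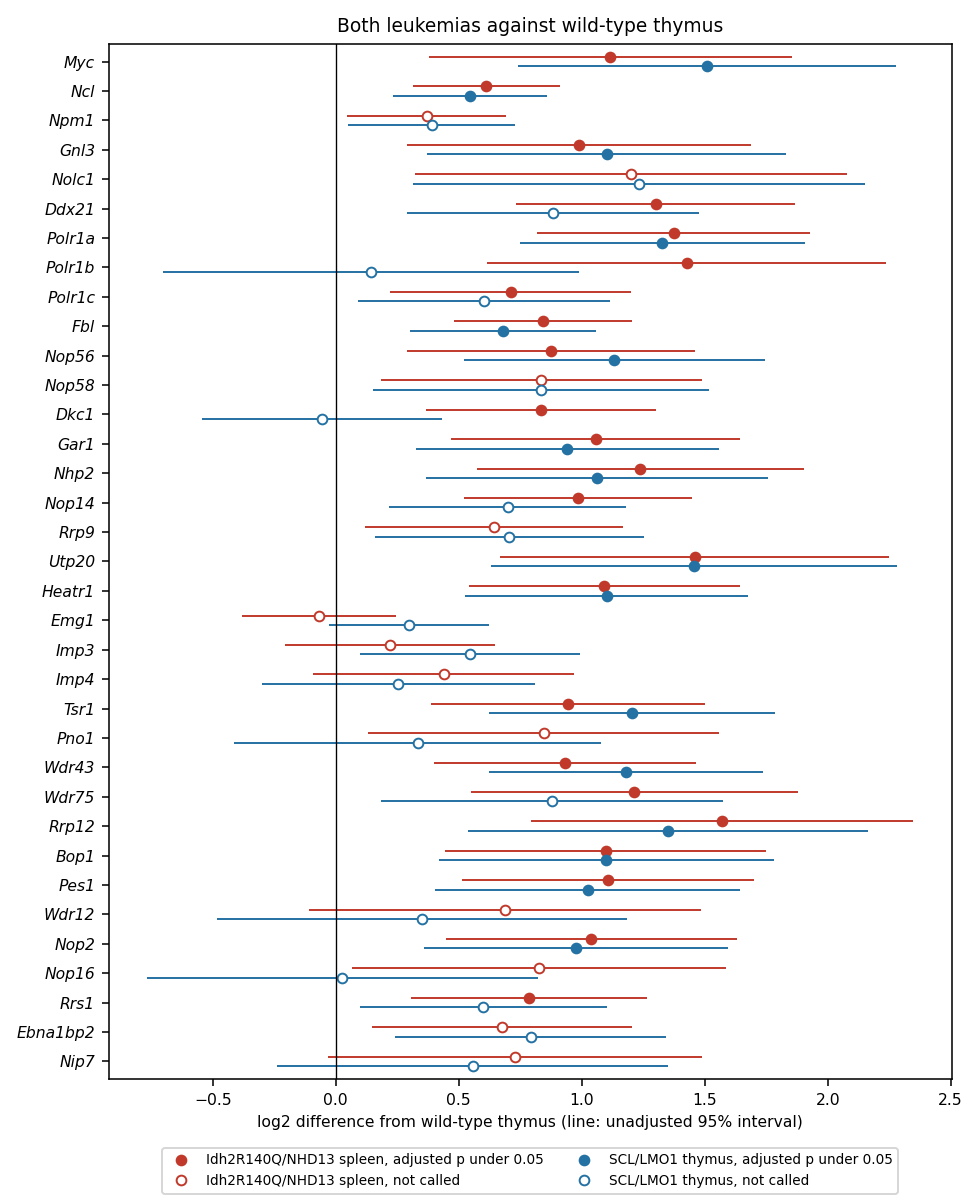
The log2 difference from wild-type thymus of each member in Idh2R140Q/NHD13 spleen (red) and SCL/LMO1 thymus (blue), with lines for unadjusted 95% intervals and filled points for members with an adjusted p under 0.05. The pairs of points run close together between about 0.2 and 1.6 for most members, and lie apart for Polr1b, Dkc1 and Nop16.

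By group means, 21 of 35 members ran in the order Idh2R140Q/NHD13 spleen, SCL/LMO1 thymus, wild-type thymus, and 12 had the leukemias in the reverse order with wild-type thymus lowest. The exceptions were Dkc1, lowest in SCL/LMO1 thymus, and Emg1, lowest in Idh2R140Q/NHD13 spleen. Since 32 of the 35 members were not called between the leukemias, the order of the leukemias was not established for those. In SCL/LMO1 thymus 27 of 35 members lay above the wild type without overlap, where 11.3% of all genes did. In Idh2R140Q/NHD13 spleen 10 did, where 6.99% of all genes did. No member (0) lay wholly below the wild type in either leukemia, where 9.56% (SCL/LMO1) and 5.15% (Idh2R140Q/NHD13) of all genes did, and 0 separated the leukemias without overlap, where 4.74% of all genes lay above and 3.95% below.

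The spread within the Idh2R140Q/NHD13 group ran through nearly all members at once. The mean of the members, as a difference from the wild-type mean, was 0.92 ± 0.49 (SD, n = 8) there and 0.79 ± 0.20 (SD, n = 6) in SCL/LMO1 thymus, while the 3 wild-type mice spread by 0.24 (SD). Mice 524, 555 and 570 had member means of 0.22, 0.33 and 0.55, and the other 5 samples lay between 1.02 and 1.57. In mice 524 and 570, 0 of 35 members lay above their group mean, and in mouse 555 only Utp20 did. Mouse 525, by contrast, had 35 of 35 members above the group mean, and mouse 559 had 34. Over all genes the share above the group mean was 37.9% to 56.6% in this group. Members also moved together in SCL/LMO1 thymus, over a smaller range. Mouse 3767 had 3 of 35 members above that group's mean and mouse 6889/1 had 33, where 43.8% and 52.4% of all genes lay above.

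Myc did not follow the other members in every mouse. Mouse 559 had the lowest Myc signal of its group (9.22) with a member mean of 1.20 above the wild type, whereas mouse 524, with a similar Myc signal of 9.30, had a member mean of 0.22. The N-Myc gene Mycn also varied among these spleens, and its signal was 6.52 in mouse 559 and 10.023 in mouse 524. Mouse 559, where 34 of 35 members lay above the group mean, had a Myc signal above the wild-type mean of 8.98. The part of Myc or Mycn in the members' levels was not tested.

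The wild-type thymi differed among themselves too. Mouse 631 had 35 of 35 members above the wild-type mean, by 0.28 on average, and mice 623 and 627 were at -0.17 and -0.10. Mouse 631 also had the highest mean of 24 cell cycle genes among the 3, at 11.1 against 10.4 and 10.1. Its share of all genes above the wild-type mean was 60.2%, against 38.6% and 47% in the other two. In SCL/LMO1 thymus the lowest member mean, 0.47, was that of mouse 3767, whose thymic epithelium markers were high, and the other 5 were at 0.73 to 1.02.

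**Figure D4:**
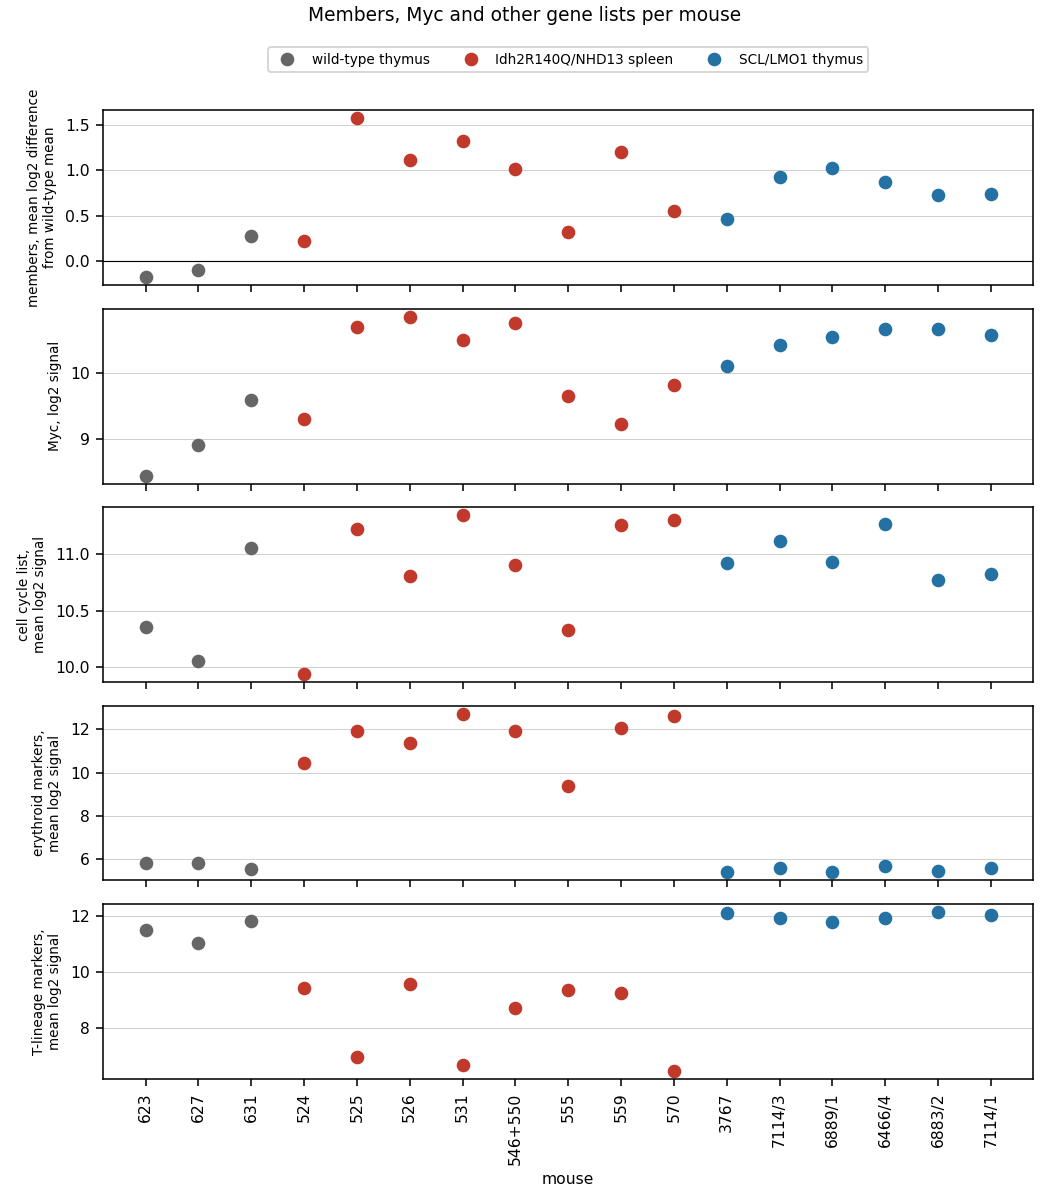
From top to bottom, 1 point per mouse gives the mean of the 35 members as a difference from the wild-type mean, the Myc signal, and the mean log2 signals of the cell cycle, erythroid and T-lineage lists. Mice 524 and 555 are low among the Idh2R140Q/NHD13 spleens in the members, the cell cycle genes and the erythroid markers, while mouse 570 is low in the members and high in those other lists.

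Cell cycle genes and erythroid markers moved with the members in part. Among Idh2R140Q/NHD13 spleens the mean of the cell cycle list was 9.94 in mouse 524 and 10.3 in mouse 555, the samples with the fewest members above the wild-type mean, and 10.8 to 11.3 in the rest, mouse 570 (11.3) included. The erythroid means of mice 524 and 555, 10.4 and 9.38, were also the lowest of the group. Against wild-type thymus 1 of 24 cell cycle genes rose in Idh2R140Q/NHD13 spleen (Mcm6, 0.81) and 2 in SCL/LMO1 thymus (Mcm7, 0.72, and Mcm6, 0.76), with list medians of 0.31 and 0.48. Beside them 9.08% and 5.04% of all genes were called higher, so these counts are no result about the list. All 12 erythroid markers rose in Idh2R140Q/NHD13 spleen against wild-type thymus, by a median of 6.20, and 1 of 12 fell in SCL/LMO1 thymus. The part of erythroid or dividing cells in the members' differences was not tested. Erythroid means were 5.40 to 5.72 in SCL/LMO1 thymus and 5.58 to 5.84 in wild-type thymus.

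Other marker lists also differed between the groups, most of them in the opposite direction to the members. The mean of 8 thymic epithelium markers was 9.22 to 9.97 in wild-type thymus, 5.56 to 6.53 in Idh2R140Q/NHD13 spleen and 5.42 to 9.06 in SCL/LMO1 thymus, and 6 and 5 of the 8 fell in these leukemias (medians -3.93 and -3.50). Neutrophil markers were at 5.61 to 6.67 in wild-type thymus, 6.68 to 12.5 in Idh2R140Q/NHD13 spleen, where 7 of 8 rose (median 4.23), and 5.58 to 9.73 in SCL/LMO1 thymus, where 0 were called. B-cell markers fell in 5 of 8 in Idh2R140Q/NHD13 spleen and in 1 of 8 in SCL/LMO1 thymus (medians -1.16 and -0.73), and macrophage markers fell in 2 of 8 in SCL/LMO1 thymus (median -1.04). T-lineage markers fell in 6 of 12 and double-positive thymocyte markers in 7 of 8 in Idh2R140Q/NHD13 spleen. The part of these cells in the members' differences was not tested.

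Promoters were examined for the E-box CACGTG, the hexamer that MYC-MAX dimers bind with high affinity and that reads the same on both strands. RefSeq windows of 300 bases (250 before and 50 after the annotated start, assembly GRCm38.p6) were available for 30 of the 36 genes, and not for Myc, Npm1, Fbl, Rrp12, Rrs1 and Bop1. The hexamer was found in 7 of the 30 (23.3%), compared with 7.15% of all 32851 windows and 10.3% of the 14517 array genes with a window. The 7 stretches are shown because they carry the hexamer counted here, with the E-box in capitals and the strand of the gene read 5′ to 3′.
Imp4 (chr1:34439681-34439740, plus strand): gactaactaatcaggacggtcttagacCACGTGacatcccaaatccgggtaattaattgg
Nop2 (chr6:125131796-125131855, plus strand): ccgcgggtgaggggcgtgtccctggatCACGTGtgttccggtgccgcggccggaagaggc
Pes1 (chr11:3963950-3964004, plus strand): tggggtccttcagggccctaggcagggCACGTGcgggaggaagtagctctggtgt
Wdr43 (chr17:71616205-71616244, plus strand): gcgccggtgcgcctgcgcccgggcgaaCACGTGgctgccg
Tsr1 (chr11:74898077-74898109, plus strand): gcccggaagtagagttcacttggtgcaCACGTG
Pno1 (chr11:17211540-17211569, minus strand): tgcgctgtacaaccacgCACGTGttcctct
Utp20 (chr10:88826765-88826794, minus strand): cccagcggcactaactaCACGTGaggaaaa

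In Imp4 and Nop2 the hexamer lay before the annotated start, beginning at bases 130 and 191 of the window, and in the other 5 just after it, at bases 253 to 288. In Idh2R140Q/NHD13 spleen 5 of the 7 rose (median 0.95), beside 13 of the 22 measured members whose window lacked it (median 0.86). Of the same 7, 5 rose in SCL/LMO1 thymus (median 1.02), beside 7 of 22 (median 0.75). Imp4 and Pno1 were the 2 with the hexamer and no call in either leukemia. A hexamer in a window is a match of letters, and whether MYC binds there was not measured.

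Other genes of the same pathway, in lists set apart from the members, had positive medians as well, and those named first below have the smallest adjusted p. Of all genes, 9.08% were called higher in Idh2R140Q/NHD13 spleen and 5.04% in SCL/LMO1 thymus. Of 20 other small subunit assembly genes 11 rose and 0 fell in Idh2R140Q/NHD13 spleen (median 0.77), first Nop9 (1.22), Nob1 (1.23) and Pwp2 (1.06), and 5 rose in SCL/LMO1 thymus (median 0.55), first Tbl3 (1.10), Wdr3 (0.88) and Utp15 (0.92). Of 20 other large subunit assembly genes 12 rose in Idh2R140Q/NHD13 spleen (median 0.89), first Nol9 (1.20), Noc2l (1.07) and the AAA ATPase Mdn1 (1.04), and 8 in SCL/LMO1 thymus (median 0.70), first Mdn1 (1.44), Rsl24d1 (0.79) and Noc2l (0.92). Of 9 other RNA polymerase I genes only the subunit Polr1e rose, by 0.90 and 1.23, and 1 call is no result about the list. The cytosolic ribosomal proteins, whose messages are abundant and regulated largely in translation, had medians of 0.16 and 0.19. In Idh2R140Q/NHD13 spleen 3 of 19 were called (Rpl8, Rps2 and Rps19, at 0.30 to 0.42), and in SCL/LMO1 thymus 6 (first Rpsa, Rpl8 and Rps6, at 0.29 to 0.55). Apart from Rps6 and Rps27, their group means lay between 13.6 and 14.5. Whether differences are compressed at signals this high was not tested, so their small medians are not comparable with those of dimmer lists.

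Between the leukemias 2 of 20 small subunit, 5 of 20 large subunit, 2 of 9 RNA polymerase I, 1 of 19 ribosomal protein and 1 of 24 cell cycle genes were called, beside 23.7% of all genes, so these counts are no result about the lists. Nop9 (0.67) and Rcl1 (0.89) of the small subunit and Ddx27 (1.58) and Nol9 (1.25) of the large subunit were higher in Idh2R140Q/NHD13 spleen, while Ddx54 (-0.90), Nsa2 (-0.83) and Rsl24d1 (-0.34) of the large subunit were lower. Ttf1, the termination factor of RNA polymerase I, was higher (0.78) and Taf1a, part of its promoter selectivity factor, lower (-0.74). Rps27 (-0.40) and the mitotic checkpoint kinase Bub1b (-0.67) were each the only call of their lists. The medians of the small and large subunit lists were 0.03 and 0.04, near the 0.03 of all genes.

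**Figure D5:**
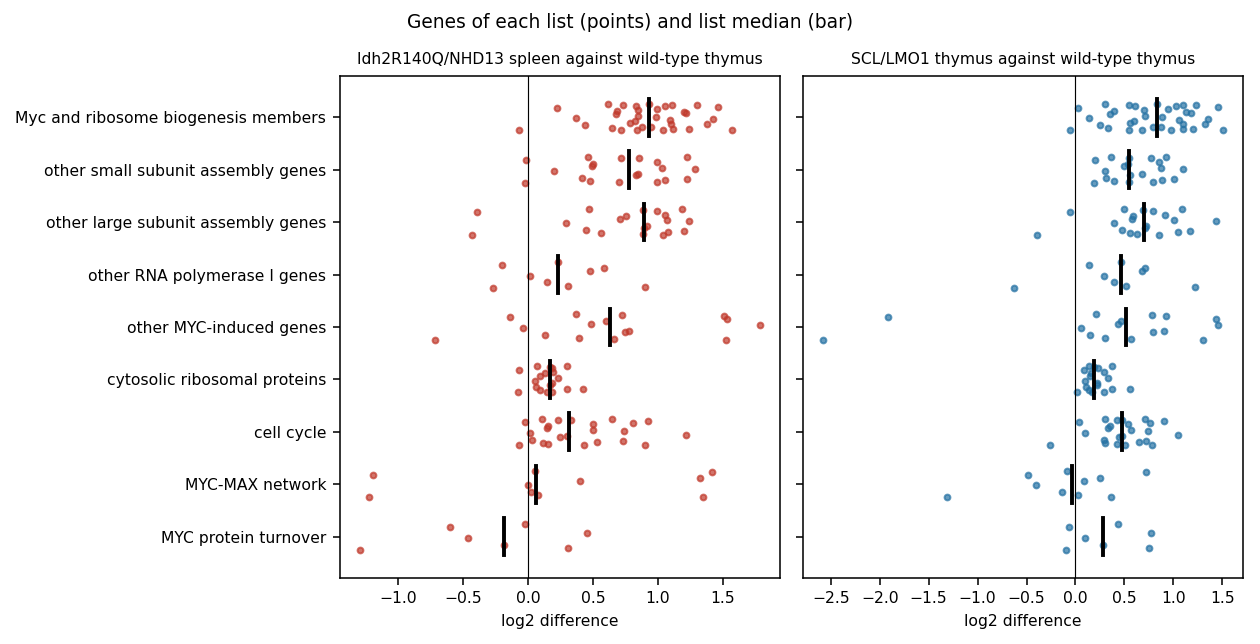
Each point is the log2 difference of 1 gene from wild-type thymus and each bar the median of its list, for Idh2R140Q/NHD13 spleen (left) and SCL/LMO1 thymus (right), on separate horizontal scales. The members and both lists of other assembly genes have medians between 0.55 and 0.93, the ribosomal proteins cluster near 0.2, and the MYC-MAX network scatters around 0.

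Of 10 genes of the MYC-MAX network, 6 were called between the leukemias, 3 in each direction, beside 23.7% of all genes. Max, the obligate dimer partner, had signals of 7.0, 7.08 and 7.62 in wild-type thymus, 6.77 to 7.37 in SCL/LMO1 thymus and 8.19 to 9.00 in Idh2R140Q/NHD13 spleen. Every Idh2R140Q/NHD13 spleen was above every thymus, by 1.55 (SE 0.15, adjusted p = 3.25e-06) against SCL/LMO1 and by 1.41 (SE 0.19, adjusted p = 0.000151) against the wild type. Mycn ran from 6.23 to 10.023 in Idh2R140Q/NHD13 spleen and from 4.62 to 6.25 in SCL/LMO1 thymus, and 3 wild-type thymi were at 6.28, 6.40 and 6.88. It was 2.66 higher (SE 0.54, adjusted p = 0.00200) in Idh2R140Q/NHD13 spleen than in SCL/LMO1 thymus, and not called against wild-type thymus (1.35, adjusted p = 0.172). Low array signals cannot be separated from background here, so the size against SCL/LMO1 thymus may be understated.

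The MXD proteins and MNT compete with MYC for MAX and repress its targets, and they split. Mxd1 was 1.73 higher in Idh2R140Q/NHD13 spleen than in SCL/LMO1 thymus, and Mxd3 (-1.56) and Mxd4 (-1.14) were lower, as was Mga (-0.67), another partner of MAX. Against wild-type thymus Mxd3 fell by 1.20 in Idh2R140Q/NHD13 spleen and Mga rose by 0.72 in SCL/LMO1 thymus. Mnt, Mxi1, Mlx and Mycl were not called in any comparison. Of 7 genes that control the turnover of MYC protein, 5 were lower in Idh2R140Q/NHD13 spleen than in SCL/LMO1 thymus, beside 12% of all genes. Gsk3b (-1.23), the kinase that marks MYC for degradation, Trpc4ap (-0.69) and Skp2 (-0.80) had the smallest adjusted p. The list holds both degradation factors and deubiquitinases, so the count has no single meaning for MYC protein. With quantile normalization 3 of the 7 were called. Gsk3b (-1.30) and Trpc4ap (-0.60) were also lower than in wild-type thymus, and the deubiquitinase Usp36 rose by 0.75 in SCL/LMO1 thymus. MYC protein was not measured.

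Of 16 other genes known to be induced by MYC, 7 rose and 0 fell in Idh2R140Q/NHD13 spleen against wild-type thymus (median 0.63), beside 9.08% and 8.31% of all genes. The polyamine enzyme Odc1 (1.53), the serine pathway enzyme Shmt2 (1.78) and the pyrimidine enzyme Cad (1.51) had the smallest adjusted p. Against wild-type thymus 4 rose and 1 fell in SCL/LMO1 thymus (median 0.51), beside 5.04% and 6.52% of all genes. There the cell cycle kinase Cdk4 (1.31), the arginine methyltransferase Prmt5 (0.91) and the helicase Eif4a1 (0.44) had the smallest adjusted p among the rises, which Shmt2 (1.43) completed, and cyclin D2, Ccnd2, fell by 2.58. Between the leukemias Ccnd2 (2.70), Odc1 (1.23) and Eif4ebp1 (2.69) were higher in Idh2R140Q/NHD13 spleen, and Tert (-2.17) and Cdk4 (-0.58) were lower.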

How the data were processed

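Per the labels, biotin-labelled total RNA was hybridised to Affymetrix arrays with 1 colour. The authors deposited log2 signals, and the sources used here do not give how these were summarised or normalized. Array medians ranged from 5.891 to 6.01, so no further scaling was applied, and detection calls were not used. Another 36 per-array columns named by array numbers alone were left out. Of the probe sets, 38089 had 1 symbol and 6948 none, and 35121 were matched to current symbols by identifier.

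limma 3.58.1 (R 4.3.3) was fitted over all 20672 genes with 1 coefficient per group. The 3 contrasts were moderated by empirical Bayes and adjusted by the Benjamini-Hochberg method. The p-values set a group difference against the spread between mice, pooled over all 3 groups, and so few arrays limit the precision. That spread was unequal: the SD of the member means was 0.49 in Idh2R140Q/NHD13 spleen, 0.20 in SCL/LMO1 thymus and 0.24 in wild-type thymus. The members and lists were chosen with earlier results of these data known. Every member is named, and of each list up to 3 called genes with the smallest adjusted p per comparison, with any called gene against its list's majority; of the MYC-MAX network all could be named. List genes not measured included Polr1f, Polr1g, Polr1h, Rps23, Rplp1, Rpl3, Rpl5 and Rpl13. Xist and Y-linked genes were examined after the data were seen.

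The fit was tested on simulated data: a planted difference of 1 log2 unit was recovered in 58% of 100 genes in each comparison with wild-type thymus and in 75% of 200 genes between the leukemias. The alternatives were quantile normalization, centred array medians, leaving out genes not above the 40th percentile in at least 3 arrays, averaging all probe sets, taking the second brightest, array weights, robust moderation with a variance trend, fitting only 2 groups, averaging mice 7114/1 and 7114/3, keeping all 18 arrays apart, an adjusted p under 0.01, leaving out mice 555, 627 and 6889/1, and leaving out each mouse in turn.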

Additional observations from a re-analysis of the deposited data

Results flagged for a closer look

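A sample far from the rest of its group was looked for in 70 combinations of member and leukemia, with Dixon's 95% critical values, and 3 stood out, where chance gives about 1 in 20. All were in SCL/LMO1 thymus, and in 3 different mice. Nop56 was 11.117 in mouse 3767, below the next lowest at 11.76, with the highest at 11.944. Without that mouse the rise of Nop56 over wild-type thymus was 1.25 in place of 1.13. Polr1a was 9.072 in mouse 6883/2, above the next highest at 8.484, and the rise was 1.21 without it in place of 1.33. Utp20 was 11.736 in mouse 7114/3, above the next highest at 10.016, and the rise was 1.14 without it in place of 1.46. All 3 members were still called higher in SCL/LMO1 than in wild-type thymus without the mouse concerned.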

How the results depend on the processing

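Between the leukemias, 3 called members (2 higher, 1 lower) became 5 with array weights (4 higher). Only 1 was higher with the mean of all probe sets, and with the second brightest probe sets 1 was higher and 2 lower. No member (0) was lower with mice 7114/1 and 7114/3 averaged, at an adjusted p under 0.01, or with mice 555, 627 and 6889/1 left out. In Idh2R140Q/NHD13 spleen against wild-type thymus, 23 calls became 33 with array weights, 9 with only the 2 groups compared, 7 at an adjusted p under 0.01 and 15 with those 3 mice left out. In SCL/LMO1 thymus against wild-type thymus, 16 became 27 with array weights, 27 with only the 2 groups compared, 10 with mice 7114/1 and 7114/3 averaged, 2 at an adjusted p under 0.01 and 2 with the 3 mice left out. Leaving out each mouse in turn gave 2 to 4 calls between the leukemias (2 to 3 higher, 0 to 1 lower), 5 to 29 in Idh2R140Q/NHD13 spleen and 1 to 20 in SCL/LMO1 thymus (8 without mouse 7114/3). No member was called lower than wild-type thymus under any of the 29 alternatives. With the second brightest probe sets the direction turned for Pes1 against wild-type thymus (-0.039 in Idh2R140Q/NHD13 spleen, adjusted p = 0.93, and -0.34 in SCL/LMO1 thymus, adjusted p = 0.48) and for Wdr12 between the leukemias (-1.36) and in Idh2R140Q/NHD13 spleen (-1.08, adjusted p = 0.069). Signs of uncalled differences also turned between the leukemias for Nop16 (-0.06), Polr1a (-0.47), Npm1 (0.15) and Nolc1 (0.14), and in SCL/LMO1 thymus for Dkc1 (0.76). Members called under every alternative were Polr1b between the leukemias, Ddx21 and Fbl in Idh2R140Q/NHD13 spleen, and Polr1a in SCL/LMO1 thymus. Causes were not tested, apart from the stricter threshold and the fewer samples that define some alternatives.

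Centred array medians moved the split of all genes called, to 2560 higher and 1558 lower in Idh2R140Q/NHD13 spleen (1878 and 1718 as deposited) and to 1720 and 1198 in SCL/LMO1 thymus (1042 and 1348 as deposited). The members called higher went from 23 to 24 in Idh2R140Q/NHD13 spleen and from 16 to 19 in SCL/LMO1 thymus, with 0 lower in each. The median difference of the MYC-MAX network in SCL/LMO1 thymus was -0.03 as deposited and 0.03 with quantile normalization. No paired analysis was possible because the mouse numbers are not shared between groups. Dim signals cannot be told from background without detection calls, so small differences of dim probe sets stay uncertain.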
